A study of Mus musculus with 18 samples.

Results

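TNF superfamily ligands are trimeric membrane proteins, some of them also shed or secreted, through which T cells signal to neighbouring cells. Their receptors act through TRAF adaptors, which lead to NF-kappaB activation and survival, or through death domain adaptors, which lead to caspase activation. In T cells most of these ligands are made after stimulation of the antigen receptor, and T cell subsets differ in which of them they make. The 9 ligand genes described here, of 55487 genes in the count table, are Tnf, Lta, Ltb, Tnfsf11, Cd40lg, Tnfsf10, Tnfsf8, Fasl and Tnfsf4. They were chosen by name, and each was matched to its Ensembl ID. In the libraries labelled Treg, Lta, Tnf and Tnfsf8 were lower and Ltb was higher than in CD4 and CD8 cells of the same genotype, though none of the Tnf calls and not every Tnfsf8 call held when libraries were scaled to T cell receptor and CD3 counts. Cd40lg followed the CD4 lineage, and no ligand passed the test between Ebi3 KO and WT cells of the same type.

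The libraries came from mouse splenic T cells that were sorted and then stimulated in culture. The stimulus lasted 72 h and consisted of IL-2 at 10 ng/ml, antibody to CD28 at 2 µg/ml, and antibody to CD3 coated on the plate at 2 µg/ml. The KO groups came from Foxp3 YFP/cre mice that were also Ebi3 -/-, and the WT groups from Foxp3 YFP/cre mice, so every group carried the Foxp3 YFP/cre allele. Each genotype gave 3 libraries labelled Treg, 3 labelled CD8+ and 3 labelled CD4+, 18 in all, made from 500 ng of RNA with a kit that reads the 3′ end of each transcript and with unique molecular identifiers. Ebi3 encodes a subunit of the cytokines IL-27 and IL-35, and the series compares T cell expression with and without it.

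Total counts were 841892 to 1089003 in Treg, 1819035 to 2077358 in CD8 and 1358671 to 2255950 in CD4 libraries. Levels are given as CPM, the usual depth-scaled count, on library sizes scaled by TMM, the trimmed mean method of edgeR. Whether replicates were separate animals or cultures is not stated in any source used here, and p-values therefore cover the spread among these libraries and no more. Replicates 1 and 3 of Treg KO were as alike as sampling noise allows, and so were replicates 1 and 2 of Treg WT, so that they differed by less than that noise. Each such pair was counted as 1 sample in the means, which leaves n = 2 per Treg group. The main fit kept all 18 libraries apart, so its SE and p-values take 3 libraries per Treg group. With each pair summed in the fit, the number of ligands called in Treg against CD4 or CD8 did not change. Of 9 pairs across the Treg genotypes 4 also showed no difference beyond sampling noise, so Treg KO and Treg WT may not be independent of each other. Foxp3, which defines regulatory T cells, had 0 or 1 count in every library, and Treg libraries held Cd8a (24.7 to 46.3 CPM) beside Cd4 (34.1 to 67.3 CPM), so Treg below is the label of 6 libraries only. Ebi3 itself was counted in every library, at 24.3 to 34.1 CPM in Treg KO and 25.6 to 39.8 CPM in Treg WT libraries. It stood at 24.0 to 33.7 CPM in CD8 KO against 27.7 to 29.4 CPM in CD8 WT, and at 20.4 to 25.9 CPM in CD4 KO against 38.3 to 59.9 CPM in CD4 WT libraries. Whether the counted reads come from the deleted part of Ebi3 was not tested. The Ebi3 level therefore does not check the genotype labels, and KO and WT mean the libraries so labelled. All 10 B cell markers were counted in each group, with summed levels of 4837 to 5125 CPM in Treg KO, 4691 to 5040 CPM in Treg WT, 3964 to 5490 CPM in CD8 KO, 2552 to 4361 CPM in CD8 WT, 3044 to 4181 CPM in CD4 KO and 3452 to 6178 CPM in CD4 WT libraries.

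Tnf, Lta and Ltb lie side by side on chromosome 17 of GRCm38. Tnf (ENSMUSG00000024401) covers 35199381 to 35202007 and Lta (ENSMUSG00000024402) covers 35203165 to 35205351, both on the minus strand. Ltb (ENSMUSG00000024399) covers 35194439 to 35196320 on the plus strand. The gaps are 3060 bases between Ltb and Tnf and 1157 bases between Tnf and Lta. Tnf encodes the inflammatory cytokine TNF, and Lta encodes lymphotoxin alpha, which is secreted as a trimer that binds the TNF receptors or held at the surface by lymphotoxin beta, the product of Ltb. The surface complex engages the lymphotoxin beta receptor on stromal cells and is needed for lymphoid organ structure. The only other annotated genes within these 3 genes are Mir6974 inside Lta and Mir6973a inside Ltb, outside their exons and with 1 summed count each.

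The promoters of these 3 neighbours are shown because Ltb and the other pair moved in opposite directions in the Treg libraries. Each run covers 250 bases before to 50 bases after the transcription start in RefSeq on GRCm38.p6, written 5′ to 3′ in the direction of the gene. It is chr17:35201958-35202257 on the minus strand for Tnf, chr17:35205302-35205601 on the minus strand for Lta and chr17:35194257-35194556 on the plus strand for Ltb. Capitals mark a match to the kappaB motif.
Tnf: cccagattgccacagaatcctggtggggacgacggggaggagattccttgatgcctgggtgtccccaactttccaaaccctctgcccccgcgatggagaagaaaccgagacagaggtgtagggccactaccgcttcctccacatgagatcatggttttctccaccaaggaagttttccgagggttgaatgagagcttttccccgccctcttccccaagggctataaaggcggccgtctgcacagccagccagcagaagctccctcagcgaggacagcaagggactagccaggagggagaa
Lta: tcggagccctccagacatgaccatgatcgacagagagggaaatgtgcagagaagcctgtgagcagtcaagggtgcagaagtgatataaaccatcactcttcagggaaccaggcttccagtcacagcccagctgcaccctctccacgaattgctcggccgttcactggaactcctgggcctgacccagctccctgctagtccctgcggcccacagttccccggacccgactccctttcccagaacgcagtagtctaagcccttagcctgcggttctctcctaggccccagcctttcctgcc
Ltb: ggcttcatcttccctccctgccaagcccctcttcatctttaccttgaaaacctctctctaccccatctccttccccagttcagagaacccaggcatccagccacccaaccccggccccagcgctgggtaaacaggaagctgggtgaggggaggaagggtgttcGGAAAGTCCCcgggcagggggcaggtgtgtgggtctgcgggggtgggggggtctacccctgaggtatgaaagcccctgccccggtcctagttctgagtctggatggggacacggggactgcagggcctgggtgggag
The kappaB motif, the site of NF-kappaB factors, was searched by its consensus on both strands and found once in Ltb, 87 bases before the start (position -87), and in none of the other 6 ligand promoters that RefSeq gave (Tnf, Lta, Tnfsf11, Tnfsf10, Tnfsf8 and Fasl). Of all 32851 promoters of this length 8.46% held a match. The NFAT core GGAAA, searched on both strands, was found 3 times in Tnf, 3 times in Lta and once in Ltb, where it lies inside the kappaB match, and 61.3% of all promoters held it. The AP-1 motif TGANTCA was found in 0 of the 7 ligand promoters and in 7.81% of all promoters. Such matches describe the letters in this window and are not evidence of binding. Promoters of Cd40lg and Tnfsf4 are not shown.

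Tnf was lower in the Treg libraries. It stood at 18.1, 11.4 and 10.9 CPM in Treg KO and at 15.4, 13.4 and 9.47 CPM in Treg WT libraries. In CD8 KO it stood at 26.8, 21.9 and 20.9 CPM, against 27.8, 29.2 and 21.5 CPM in CD8 WT libraries. The CD4 KO values were 22.1, 28.5 and 29.7 CPM, against 20.2, 29.2 and 30.6 CPM in CD4 WT libraries. Every Treg library lay below every CD8 and CD4 library, while CD8 and CD4 libraries overlapped. The log2 fold change was -0.996 (SE 0.26, edgeR adjusted p = 0.00215) in Treg KO against CD4 KO and -1.12 (SE 0.27, edgeR adjusted p = 0.00119) in Treg WT against CD4 WT. Against CD8 it was -0.79 (SE 0.27, edgeR adjusted p = 0.0168) in KO and -1.07 (SE 0.27, edgeR adjusted p = 0.00138) in WT. The KO difference from CD8 was no longer called without CD8 KO replicate 1 (edgeR adjusted p = 0.0586), without Treg KO replicate 2 (0.0921) or without Treg KO replicate 3 (0.0747). None of the 4 Tnf calls held when libraries were scaled to T cell receptor and CD3 counts, as given with those values further on.

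The 3′ untranslated region (UTR) of Tnf is known for repeats of the heptamer TATTTAT, to which Zfp36 (tristetraprolin) binds and which shorten the life of the message. The longest annotated 3′ UTR of Tnf in GRCm38 (764 bases) held 8 such heptamers, counted with overlaps. A stretch of 30 bases with 5 of them is shown because it is the densest in Tnf, as DNA letters in the direction of the gene with the heptamers in capitals.
Tnf 3′ UTR site: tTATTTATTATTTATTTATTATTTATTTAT
Of 21020 protein-coding genes 27.6% held at least 1 heptamer, 4.14% held 3 or more, and 37 genes (0.176%) held 8 or more. Lta, Tnfsf10 and Tnfsf8 held 3 each, Cd40lg 2, Tnfsf11 and Fasl 1 each, and Ltb and Tnfsf4 held 0. The longest ligand UTRs were those of Tnfsf10 (3998 bases) and Tnfsf8 (2799 bases), against 572 bases for Lta and 174 bases for Ltb.

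Lta, too, was lower in the Treg libraries. It stood at 9.64, 9.48 and 9.73 CPM in Treg KO and at 10.3, 12.2 and 8.52 CPM in Treg WT libraries, from 8 to 10 counts each. CD8 KO libraries held 105.7, 88.3 and 81.6 CPM, against 113.9, 120.01 and 87.2 CPM in CD8 WT libraries. In CD4 KO it stood at 116.1, 64.7 and 73.7 CPM, against 53.4, 96.2 and 80.8 CPM in CD4 WT libraries. All 6 Treg libraries were far below all 12 others, and the KO and WT libraries overlapped in each cell type. The log2 fold change was -3.14 (SE 0.33, edgeR adjusted p = 7.22e-08) in Treg KO against CD4 KO and -2.93 (SE 0.33, edgeR adjusted p = 3.32e-07) in Treg WT against CD4 WT. Against CD8 it was -3.24 (SE 0.33, edgeR adjusted p = 5.52e-08) in KO and -3.38 (SE 0.32, edgeR adjusted p = 1.41e-08) in WT.

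Ltb went the other way. It stood at 73.5, 109.1 and 79.0 CPM in Treg KO and at 98.9, 80.3 and 104.1 CPM in Treg WT libraries. The CD8 KO values were 35.4, 27.0 and 29.4 CPM, against 33.8, 51.4 and 53.4 CPM in CD8 WT libraries. CD4 KO libraries held 32.9, 36.8 and 33.8 CPM, against 65.0, 38.3 and 39.6 CPM in CD4 WT libraries. The lowest Treg library was above the highest of all CD8 and CD4 libraries. Ltb was 2.56-fold higher in Treg KO than in CD4 KO (log2 1.35, SE 0.20, edgeR adjusted p = 1.90e-06) and 2.04-fold higher in Treg WT than in CD4 WT (log2 1.03, SE 0.19, edgeR adjusted p = 8.27e-05). Against CD8 the log2 fold change was 1.53 (SE 0.20, edgeR adjusted p = 5.33e-07) in KO and 1.04 (SE 0.19, edgeR adjusted p = 4.30e-05) in WT. B cells also make Ltb. Of 10 B cell markers 5 were higher in Treg KO than in CD4 KO (27.8% of all genes) and 4 in Treg WT than in CD4 WT (24.8%). Against CD8, 4 were higher in Treg KO (25.1% of all genes) and 7 in Treg WT (28.8%), with 0 lower in any of these comparisons. The 4 of smallest p rose by log2 1.58 to 2.03 (Fcer2a), 1.37 to 1.85 (Cd79a), 1.07 to 1.51 (Ebf1) and 0.53 to 1.03 (Pax5). The median of all 10 was 0.67 in KO and 0.19 in WT against CD4, and 0.29 and 0.66 against CD8. The part of B cells in the Ltb result was not tested. CD8 KO replicate 3 had a B cell sum of 5490 CPM, above every Treg library, with Ltb at 29.4 CPM, and CD4 WT replicate 1 had the highest B cell sum, 6178 CPM, with Ltb at 65.0 CPM.

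**Figure D1:**
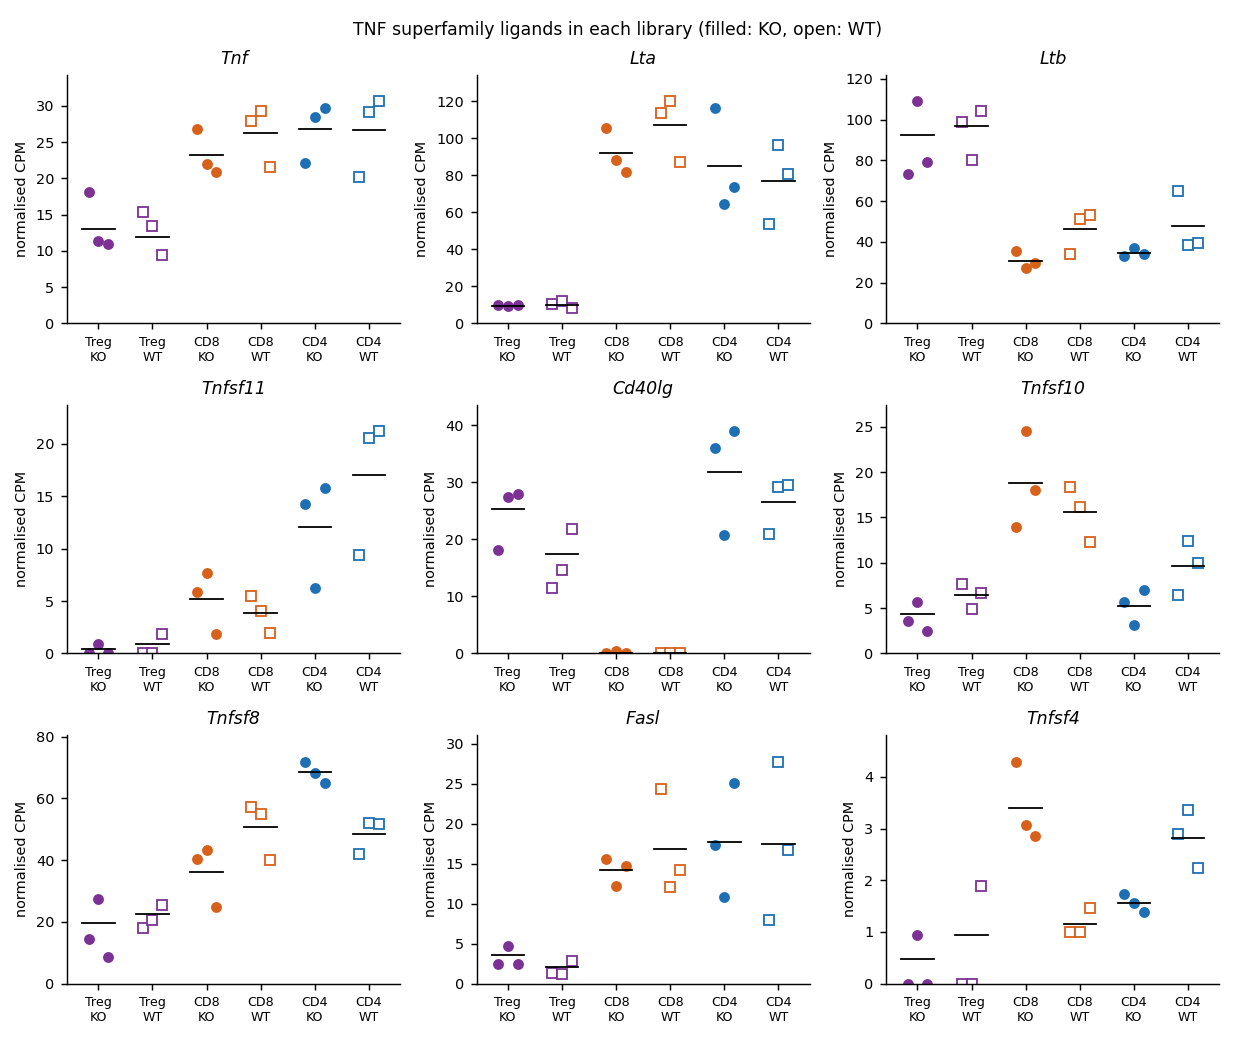
Normalised level (CPM, linear axes from 0) of the 9 ligands in each of 18 libraries, by cell type label and genotype. Filled circles are KO libraries, open squares WT libraries, and bars the group means with the near-identical Treg pairs counted once. Lta runs from 8.52 to 12.2 CPM in the Treg libraries, and Cd40lg is at 0 in 5 of 6 CD8 libraries.

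**Figure D2:**
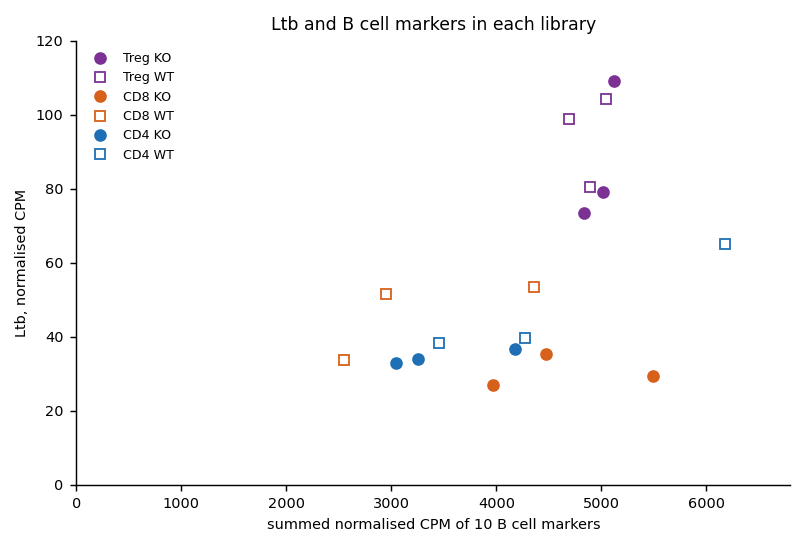
Ltb (CPM, y axis) against the summed level of 10 B cell markers (CPM, x axis) in each library, with filled circles for KO and open squares for WT. The 6 Treg libraries sit at 73.5 to 109.1 CPM of Ltb, above libraries of like or higher B cell marker sums in CD8 KO and CD4 WT. The sum does not show single markers, some of which were higher in Treg libraries, and the part of B cells in Ltb was not tested.

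Cd40lg (ENSMUSG00000031132, chromosome X, 57212143 to 57224042) encodes CD40 ligand, by which helper T cells license B cells and dendritic cells. It stood at 18.1, 27.5 and 28.0 CPM in Treg KO and at 11.6, 14.6 and 21.8 CPM in Treg WT libraries. CD8 KO libraries had 0, 1 and 0 counts and CD8 WT libraries 0 counts throughout. The CD4 KO values were 36.0, 20.7 and 38.9 CPM, against 20.9, 29.2 and 29.5 CPM in CD4 WT libraries. Treg and CD4 libraries lay far above all CD8 libraries and overlapped with each other. Summed over a group, Cd40lg had 44 counts in Treg WT and 0 in CD8 WT. Its Treg WT level was 33.3-fold above a floor set at 3 counts over the CD8 WT group. The lower 95% counting bound of this ratio of levels was 26.0. In KO it had 67 counts in Treg and 1 in CD8, a ratio of levels of 146.7 (95% counting interval 25.4 to 5881). CD8 WT had 0 counts and CD4 WT 143, and the CD4 WT level was 54.6-fold above the same floor. The upper 95% counting bound of the ratio of CD8 WT over CD4 WT was 0.0228. CD8 KO had 1 count and CD4 KO 207, a ratio of 0.00521 (95% counting interval 0.000131 to 0.0294). Intervals and floors cover counting error only. Between Treg and CD4 the log2 fold change was -0.38 (SE 0.26, edgeR adjusted p = 0.239) in KO and -0.71 (SE 0.30, edgeR adjusted p = 0.0531) in WT. The KO difference was called without CD4 KO replicate 2 (edgeR adjusted p = 0.0453), and the WT difference without CD4 WT replicate 1 (0.0152) or without Treg WT replicate 3 (0.0252). The WT difference was also called in 5 of 10 other settings of the fit, with adjusted p between 0.00713 and 0.0479.

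Tnfsf11 (ENSMUSG00000022015, chromosome 14, 78277445 to 78308043, minus strand) encodes RANKL, which drives osteoclast formation and lymph node development. It was nearly without counts in the Treg libraries, with 0, 1 and 0 counts in Treg KO and 0, 0 and 2 in Treg WT. In CD8 KO it stood at 5.90, 7.65 and 1.90 CPM, against 5.47, 4.03 and 1.96 CPM in CD8 WT libraries. In CD4 KO it stood at 14.3, 6.21 and 15.8 CPM, against 9.38, 20.6 and 21.2 CPM in CD4 WT libraries. The level was highest in CD4, lower in CD8 and lowest in Treg libraries, with overlap between CD8 KO and CD4 KO. The ratio of levels was 0.0299 (95% counting interval 0.000748 to 0.172) for Treg KO over CD4 KO and 0.0422 (0.00504 to 0.157) for Treg WT over CD4 WT. Treg KO over CD8 KO gave 0.0730 (0.00179 to 0.439) and Treg WT over CD8 WT gave 0.198 (0.0226 to 0.799). Tnfsf11 passed the filter on low counts through its levels outside the Treg libraries, so no p-value is given for these ratios. In CD8 WT against CD4 WT Tnfsf11 was 0.220 times the CD4 level (log2 -2.18, SE 0.43). The ratio over summed counts was 0.214 (95% counting interval 0.129 to 0.34). In CD8 KO against CD4 KO the log2 fold change was -1.26 (SE 0.42) and was not called. It was called without CD4 KO replicate 2 or with no filter on low counts. Tnfsf11 passed that filter through CD4, where it is highest, so no p-value is given against CD4 either.

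Tnfsf8 (ENSMUSG00000028362, chromosome 4, 63831308 to 63861347, minus strand) encodes CD30 ligand, a surface protein of activated T cells. It stood at 14.5, 27.5 and 8.51 CPM in Treg KO and at 17.97, 20.7 and 25.6 CPM in Treg WT libraries. CD8 KO libraries held 40.3, 43.4 and 24.7 CPM, against 57.2, 54.97 and 40.2 CPM in CD8 WT libraries. CD4 KO libraries held 71.9, 68.3 and 64.9 CPM, against 41.9, 52.2 and 51.8 CPM in CD4 WT libraries. CD4 KO libraries were the highest of all, and Treg libraries the lowest, save that Treg KO replicate 2 and Treg WT replicate 3 exceeded CD8 KO replicate 3. Tnfsf8 was lower in Treg than in CD4 (log2 -1.95, SE 0.26, edgeR adjusted p = 3.71e-07 in KO, and -1.17, SE 0.26, edgeR adjusted p = 0.00053 in WT). It was lower in Treg than in CD8 as well (-1.03, SE 0.28, edgeR adjusted p = 0.00352 in KO, and -1.22, SE 0.26, edgeR adjusted p = 0.000218 in WT). Without Treg KO replicate 2, the highest of its group, the KO values were -2.57 against CD4 and -1.64 against CD8. The WT call against CD8 was lost with scaling to T cell receptor and CD3 counts (log2 -0.62, edgeR adjusted p = 0.0926). CD8 KO lay below CD4 KO (log2 -0.93, SE 0.19, edgeR adjusted p = 0.00262, and 0.193 with that scaling), whereas CD8 WT and CD4 WT overlapped (log2 0.05, SE 0.19, edgeR adjusted p = 0.945).

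Fasl and Tnfsf10 encode ligands of death receptors. Fasl (ENSMUSG00000000817, chromosome 1, 161780689 to 161788495, minus strand) encodes FAS ligand, by which cytotoxic and activated T cells kill cells that carry FAS. It had 2, 5 and 2 counts in Treg KO and 1, 1 and 3 counts in Treg WT libraries, or 2.41, 4.74 and 2.43 CPM and 1.28, 1.22 and 2.84 CPM. The CD8 KO values were 15.6, 12.2 and 14.7 CPM, against 24.4, 12.1 and 14.2 CPM in CD8 WT libraries. The CD4 KO values were 17.3, 10.9 and 25.03 CPM, against 7.94, 27.8 and 16.7 CPM in CD4 WT libraries. Treg libraries lay below all others, and CD8 and CD4 libraries overlapped. The ratio of levels over summed counts was 0.185 (95% counting interval 0.0825 to 0.364) for Treg KO over CD4 KO and 0.1002 (0.0318 to 0.242) for Treg WT over CD4 WT. It was 0.235 (0.104 to 0.467) for Treg KO over CD8 KO and 0.111 (0.0354 to 0.269) for Treg WT over CD8 WT. Fasl, too, passed the filter only through CD8 and CD4 libraries, so no p-value is given for these ratios. Between CD8 and CD4 the log2 fold change of Fasl was -0.34 (SE 0.33, edgeR adjusted p = 0.681) in KO and -0.12 (SE 0.32, edgeR adjusted p = 0.899) in WT.

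Tnfsf10 (ENSMUSG00000039304, chromosome 3, 27317028 to 27342427) encodes TRAIL, a ligand of the mouse death receptor Tnfrsf10b. It stood at 3.61, 5.69 and 2.43 CPM in Treg KO and at 7.70, 4.87 and 6.63 CPM in Treg WT libraries. In CD8 KO it stood at 14.0, 24.5 and 18.03 CPM, against 18.4, 16.1 and 12.2 CPM in CD8 WT libraries. In CD4 KO it stood at 5.63, 3.11 and 6.95 CPM, against 6.50, 12.4 and 10.0 CPM in CD4 WT libraries. CD8 libraries were the highest, with CD8 WT replicate 3 just under the highest CD4 WT library, and Treg and CD4 libraries overlapped. In Treg against CD8 the log2 fold change was -2.20 (SE 0.40) in KO and -1.27 (SE 0.37) in WT. Tnfsf10 had 3, 6 and 2 counts in Treg KO and 6, 4 and 7 in Treg WT libraries. It passed the filter on low counts through the groups in which it is high, so no p-value is given for Treg comparisons. With a hemoglobin covariate the WT value against CD8 was -0.77 and was no longer called. Erythroid markers summed to 1193 to 1215 CPM in Treg WT against 629.4 to 1042 CPM in CD8 WT libraries. Tnfsf10 was 3.52-fold higher in CD8 KO than in CD4 KO (log2 1.82, SE 0.29, edgeR adjusted p = 9.15e-05), while CD8 WT against CD4 WT gave 0.64 (SE 0.28, edgeR adjusted p = 0.187). Treg against CD4 gave -0.38 (SE 0.50) in KO and -0.63 (SE 0.41) in WT, and neither was called.

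Tnfsf4 (ENSMUSG00000026700, chromosome 1, 161395409 to 161418410) encodes OX40 ligand, mostly a product of antigen-presenting cells, and lies 362278 bases from Fasl. It had 55 counts in all, in 14 libraries, and did not pass the filter on low counts, so it is not among the 8 ligands tested. Treg KO libraries had 0, 1 and 0 counts and Treg WT libraries 0, 0 and 2. CD8 KO libraries had 8, 6 and 6 counts and CD8 WT libraries 2, 2 and 3. CD4 KO libraries had 4, 3 and 3 counts and CD4 WT libraries 4, 7 and 4. In CD8 the KO libraries lay above all WT libraries, at 20 against 7 summed counts, a ratio of levels of 2.91 (95% counting interval 1.18 to 8.14). With no filter on low counts the log2 fold change was 1.48 (SE 0.62) and did not pass (edgeR adjusted p = 0.324). Of the other comparisons of Tnfsf4 in that fit, Treg KO against CD8 KO alone passed (edgeR adjusted p = 0.012), on 1 summed count in Treg KO and 20 in CD8 KO, a ratio of levels of 0.110 (95% counting interval 0.00264 to 0.685). In CD4 the libraries lay apart in the opposite order, at 1.73, 1.55 and 1.39 CPM in KO and 2.89, 3.35 and 2.23 CPM in WT, or 10 against 15 summed counts (ratio 0.549, 95% counting interval 0.221 to 1.31).

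Across the 8 tested ligands, 6 passed in Treg KO against CD4 KO, where 48% of the 12693 genes tested did. Of these 1 was higher (27.8% of all genes) and 5 were lower (20.3%), and the libraries of 6 did not overlap (57.5% of all genes). In Treg WT against CD4 WT it was again 1 higher and 5 lower, where 43% of all genes passed, 24.8% higher and 18.2% lower, with 6 not overlapping (50.7%). Against CD8 the ligands gave 2 higher and 6 lower in KO, where 44.2% of all genes passed (25.1% higher, 19% lower), and 2 higher and 5 lower in WT, where 50.3% passed (28.8% higher, 21.4% lower). Here 7 ligands did not overlap in KO (55.5% of all genes) and 8 in WT (58.1%). With scaling to T cell receptor and CD3 counts, the share of all called genes that were higher became 83.1% in Treg KO and 82.8% in Treg WT against CD4, in place of 57.8% and 57.7%, and 57.6% in KO and 89.2% in WT against CD8, in place of 56.9% and 57.4%. The ligands' median log2 fold change was -1.48 in Treg KO and -1.14 in Treg WT against CD4, where the median of all genes was 0.10 and 0.05. Against CD8 it was -1.55 in KO and -1.25 in WT, with 0.04 and 0.10 for all genes. These comparisons share libraries, and Cd40lg, Tnfsf11, Fasl and Tnfsf10 passed the filter through the groups in which they are high, so counts and medians only describe the list. In such bulk samples fewer cells making a ligand and less of its RNA per cell cannot be told apart.

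**Figure D3:**
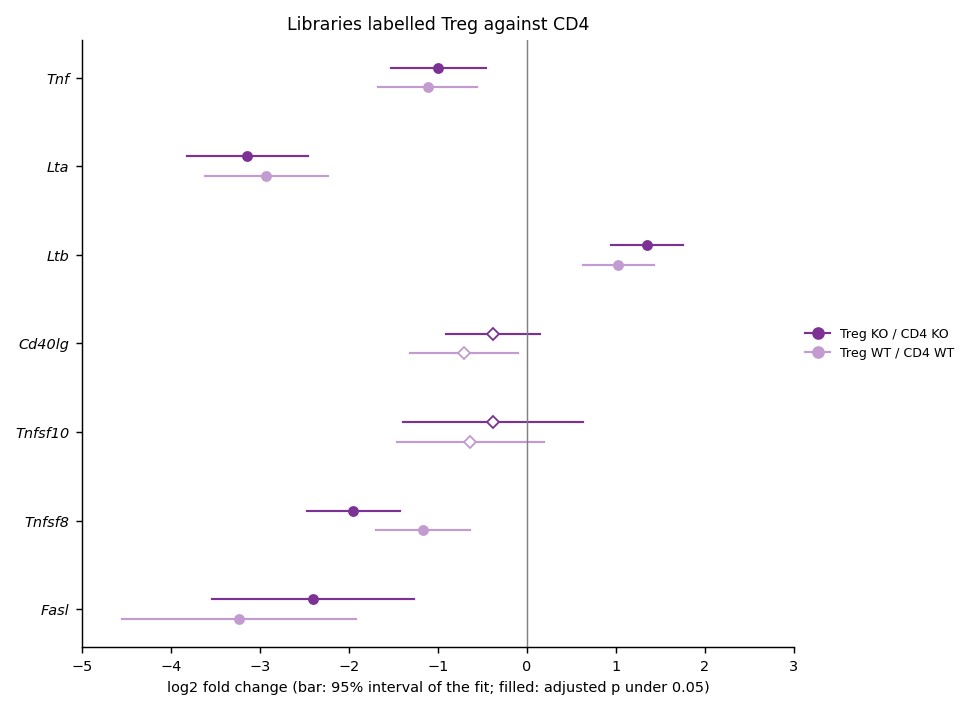
Log2 fold change of Treg against CD4 libraries (x axis) for 7 ligands, in KO (dark, upper of each pair) and WT (light, lower). Bars are 95% intervals of the fit, filled points passed edgeR's adjusted threshold of 0.05, and Tnfsf11 is left out because of its few Treg counts. Fasl, also with few Treg counts, passed the filter on low counts only through CD8 and CD4 libraries, so its filled points are not read as a test. Ltb lies right of 0, at 1.35 and 1.03, and Lta farthest left of those shown in KO, at -3.14.

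A scale that follows T cell RNA was tried as well. Of its 4 genes 1 was lower in Treg KO than in CD4 KO (20.3% of all genes) and 2 were lower in Treg WT than in CD8 WT (21.4%). In the other comparisons 0 passed by edgeR. The summed level of Cd3d, Cd3e, Cd3g and Trac, subunits of the T cell receptor complex, was 420.8 to 504.6 CPM in Treg KO, 342.1 to 467.7 CPM in Treg WT, 326.0 to 544.8 CPM in CD8 KO, 484.4 to 728.7 CPM in CD8 WT, 557.5 to 712.9 CPM in CD4 KO and 368.1 to 617.8 CPM in CD4 WT libraries. Per 1000 of these counts, Lta still stood at 18.8 to 23.1 in Treg KO and 18.2 to 35.6 in Treg WT libraries. It stood at 167.8 to 250.4 in CD8 KO, 164.7 to 180.0 in CD8 WT, 103.4 to 203.7 in CD4 KO and 144.9 to 155.7 in CD4 WT libraries. On this scale, too, every Treg library lay below every CD8 and CD4 library in Lta. Ltb stood at 160.5 to 216.2 in Treg KO and 222.7 to 246.8 in Treg WT, against 47.5 to 65.9 in CD4 KO and 62.0 to 176.5 in CD4 WT libraries. One CD4 WT library, replicate 1, thus came within the Treg KO range of Ltb.

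Tnf stood closer on this scale, at 22.6 to 39.5 in Treg KO and 20.2 to 39.1 in Treg WT libraries per 1000 T cell counts. It stood at 41.7 to 64.0 in CD8 KO, 40.1 to 44.5 in CD8 WT, 38.8 to 51.1 in CD4 KO and 47.3 to 54.9 in CD4 WT libraries. When all libraries were scaled to these T cell counts, a scaling chosen after seeing the data, Tnf no longer passed. Its log2 fold change was then -0.59 in Treg KO against CD4 KO (edgeR adjusted p = 0.176) and -0.73 in Treg WT against CD4 WT (edgeR adjusted p = 0.12). Against CD8 it was -0.82 (edgeR adjusted p = 0.0822) in KO and -0.44 (edgeR adjusted p = 0.306) in WT. The same scaling moved the median of all genes to 0.50 in Treg KO and 0.37 in Treg WT against CD4, and to -0.01 in Treg KO and 0.70 in Treg WT against CD8. It also ended the Tnfsf10 call in Treg WT against CD8 WT. The Lta and Ltb calls between Treg and the other cell types stayed past the threshold under it.

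**Figure D4:**
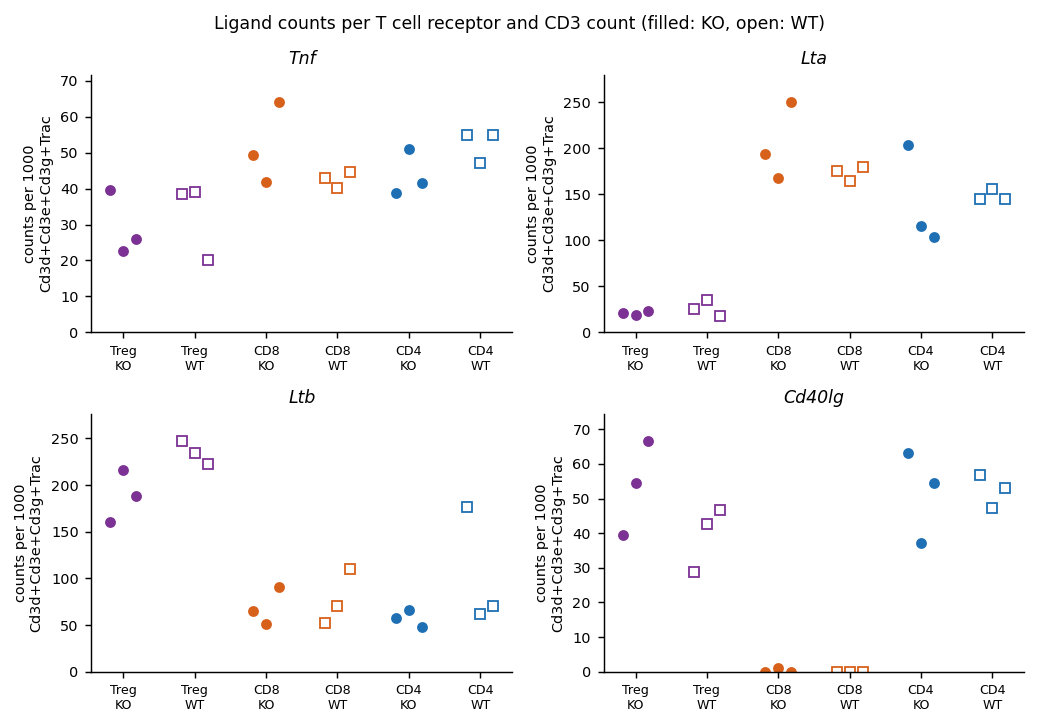
Counts of Tnf, Lta, Ltb and Cd40lg per 1000 counts of Cd3d, Cd3e, Cd3g and Trac in each library (linear axes from 0), filled circles for KO and open squares for WT. Lta stays at 18.2 to 35.6 in Treg libraries and Ltb at 160.5 to 246.8, while Tnf in Treg libraries reaches 39.5, within the CD4 KO range.

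Between CD8 and CD4 cells of one genotype few ligands differed. In KO 1 was higher (Tnfsf10) and 2 were lower (Cd40lg and Tnfsf8) in CD8, where 3.58% of all genes passed, 1.37% higher and 2.21% lower. In WT 0 were higher and 2 lower (Cd40lg and Tnfsf11), where 5.37% of all genes passed, 3.49% higher and 1.88% lower. The libraries of 3 ligands did not overlap in KO (19.2% of all genes) and those of 2 in WT (18.9%). Cd40lg and Tnfsf11 passed the filter on low counts through the groups in which they are high, so these counts only describe the list. Tnf, Lta, Ltb and Fasl did not pass in either genotype, with log2 fold changes from -0.34 for Fasl in KO to 0.45 for Lta in WT (SE 0.19, edgeR adjusted p = 0.183). Lta was called higher in CD8 KO than in CD4 KO with a hemoglobin covariate (log2 0.47, edgeR adjusted p = 0.039), and higher in CD8 WT than in CD4 WT with no filter on low counts (log2 0.47, edgeR adjusted p = 0.0182).

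No ligand passed edgeR's adjusted test between KO and WT cells. In CD8 this was 0 of 8 tested, where 0.165% of all genes passed (21 genes), 0.0551% higher and 0.11% lower. In CD4 it was 0 of 8, where 0% passed, and in Treg 0 of 8, where 0% passed. At an unadjusted edgeR p under 0.05 there were 2 of 8 ligands in CD8, where 2071 of 12693 genes were. In CD4 there were 3 of 8 ligands and 929 of 12693 genes, and in Treg 0 of 8 and 274 of 12693. DESeq2 and limma-voom also called 0 ligands by adjusted p in each. The libraries of 0 tested ligands lay entirely apart in CD8 (17.4% of all genes), of 2 in CD4 (9.64%) and of 0 in Treg (9.4%). The ligands' median log2 fold change was -0.20 in CD8, -0.03 in CD4 and -0.09 in Treg, with 0 for all genes in CD8 and CD4 and -0.01 in Treg.

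The lowest p in CD8 was that of Ltb, at 30.6 ± 4.32 CPM in KO and 46.2 ± 10.8 CPM in WT (SD, n = 3 each). Its log2 fold change of -0.60 (SE 0.20, edgeR unadjusted p = 0.00564, adjusted p = 0.142) missed the threshold, and CD8 WT replicate 1 at 33.8 CPM lay inside the KO range. Ltb was called there with no filter on low counts (edgeR adjusted p = 0.0284) and with a hemoglobin covariate (log2 -0.98, edgeR adjusted p = 0.0226), and summed erythroid markers stood at 986.9 to 1474 CPM in CD8 KO and 629.4 to 1042 CPM in CD8 WT libraries. B cell marker sums ran the other way, at 4473, 3964 and 5490 CPM in CD8 KO and 2552, 2953 and 4361 CPM in CD8 WT replicates 1 to 3. The part of either marker list in the Ltb value was not tested. In CD4, Ltb stood at 34.5 ± 2.00 CPM in KO and 47.6 ± 15.0 CPM in WT (SD, n = 3 each), with the groups apart. Its log2 fold change there was -0.43 (SE 0.20, edgeR unadjusted p = 0.0366, adjusted p = 0.667). CD4 WT replicate 1, the highest for Ltb, was also the highest in B cell markers, whose part in this was not tested, and without it the log2 fold change was -0.18. In Treg the log2 fold change of Ltb was -0.11 (SE 0.19, edgeR adjusted p = 0.999).

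Tnfsf8 had differences of opposite sign in CD8 and CD4, neither past the threshold. It averaged 36.1 ± 10.0 CPM in CD8 KO against 50.8 ± 9.25 CPM in CD8 WT, and 68.4 ± 3.51 CPM in CD4 KO against 48.6 ± 5.85 CPM in CD4 WT (SD, n = 3 each). For KO against WT the log2 fold change was -0.50 in CD8 (SE 0.20, edgeR adjusted p = 0.21) and 0.48 in CD4 (SE 0.19, edgeR adjusted p = 0.657), where the groups did not overlap. The difference between these effects, CD4 minus CD8, was 0.98 (SE 0.27, edgeR unadjusted p = 0.00113, adjusted p = 0.0864). It missed the threshold, as did all 12693 genes for this difference (0% passed, 2268 at an unadjusted p under 0.05 by edgeR, 130 with DESeq2). It was called without CD8 WT replicate 3 (edgeR adjusted p = 0.0125), without CD8 KO replicate 2 (0.0488), without CD4 WT replicate 2 (0.0387) or with no filter on low counts (0.00189).

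Tnfsf10 averaged 18.8 ± 5.31 CPM in CD8 KO against 15.6 ± 3.11 CPM in CD8 WT, and 5.23 ± 1.95 CPM in CD4 KO against 9.66 ± 2.99 CPM in CD4 WT (SD, n = 3 each). The groups overlapped in both cell types. The log2 fold change was 0.28 in CD8 (SE 0.24, edgeR adjusted p = 0.604) and -0.90 in CD4 (SE 0.34, edgeR adjusted p = 0.657), a difference of -1.18 (SE 0.41, edgeR adjusted p = 0.136). For the knockout effect in Treg minus that in CD8 or CD4, 0 ligands passed, where 0% of all genes did in either, and 0 ligands had an unadjusted edgeR p under 0.05. For Tnf and Lta the fit gave these bounds on the genotype difference. The 95% interval of the log2 fold change of Tnf was -0.58 to 0.23 in CD8 and -0.42 to 0.37 in CD4, and that of Lta -0.61 to 0.16 in CD8 and -0.27 to 0.53 in CD4.

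**Figure D5:**
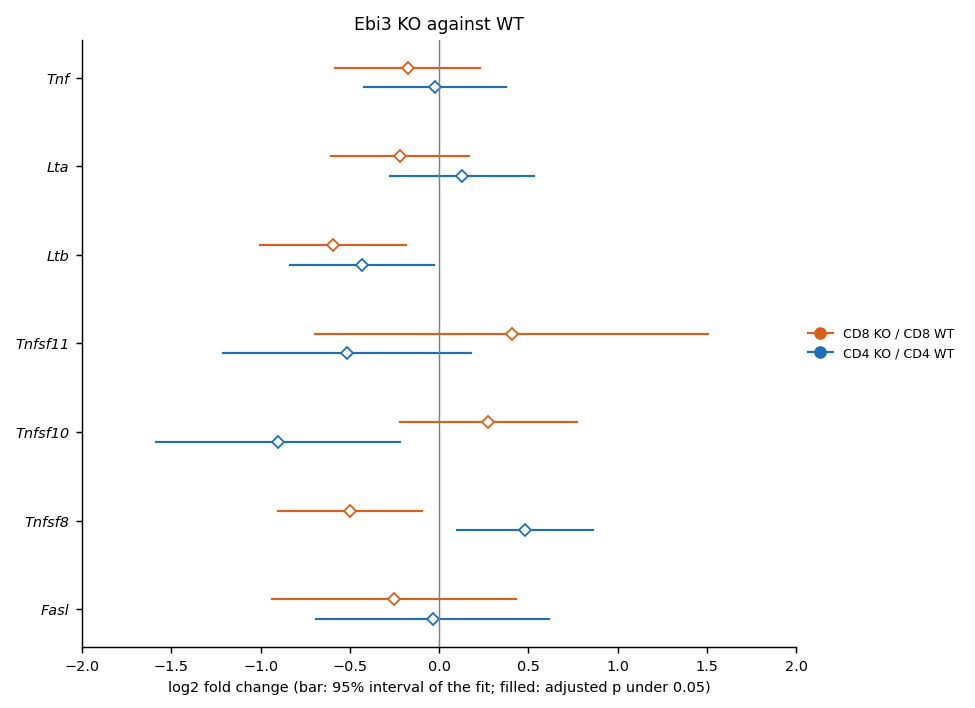
Log2 fold change of KO against WT libraries (x axis) for 7 ligands in CD8 (orange, upper of each pair) and CD4 (blue, lower), with 95% intervals of the fit. Every point is open, as no ligand passed edgeR's adjusted threshold, and Cd40lg is left out because CD8 libraries held 1 count of it in all. Ltb lies left of 0 in both cell types, and Tnfsf8 lies at -0.50 in CD8 and 0.48 in CD4.

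The receptors of these ligands were measured in the same libraries. Of 13 receptor genes 8 were tested, and 0 passed between KO and WT in any cell type. Of all genes 0.165% passed there in CD8 and 0% in CD4 and in Treg. Tnfrsf4, which encodes OX40, the receptor of the Tnfsf4 product, stood at 43.8 to 45.8 CPM in Treg KO and 32.9 to 50.1 CPM in Treg WT libraries. It stood at 149.0 to 247.4 CPM in CD8 KO, 230.7 to 346.9 CPM in CD8 WT, 383.6 to 483.9 CPM in CD4 KO and 210.8 to 383.8 CPM in CD4 WT libraries. Tnfrsf4 thus fell in Treg against both other cell types (log2 -3.24 in KO and -2.93 in WT against CD4, edgeR adjusted p = 4.81e-07 and 2.31e-06). Tnfrsf10b, the TRAIL death receptor, had at most 3 counts in a Treg library, against 39 to 56 in CD4 KO and 8 to 41 in CD4 WT libraries. Tnfrsf8, which encodes CD30, the receptor of the Tnfsf8 product, was higher in CD8 than in CD4 (log2 1.499, SE 0.23, edgeR adjusted p = 3.89e-05 in KO, and 1.80, SE 0.25, edgeR adjusted p = 8.17e-06 in WT). Against CD4, 1 of 8 tested receptors was higher and 2 were lower in Treg KO, where 48% of all genes passed (27.8% higher, 20.3% lower). In Treg WT 0 were higher and 3 lower, where 43% passed (24.8% higher, 18.2% lower).

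Of 9 other ligands of the family 2 had enough counts to be tested, Tnfsf14 (LIGHT) and Tnfsf15 (TL1A). Tnfsf14 stood at 2.43 to 4.82 CPM in Treg KO and 0.947 to 5.14 CPM in Treg WT, against 13.4 to 24.3 CPM in CD4 KO and 13.0 to 21.2 CPM in CD4 WT libraries. It was lower in Treg (log2 -2.30, SE 0.42 in KO, and -2.82, SE 0.50 in WT). Tnfsf15 stood at 10.4 to 24.3 CPM in Treg KO and 8.52 to 18.3 CPM in Treg WT, against 0.518 to 2.17 CPM in CD4 KO and 0.479 to 2.79 CPM in CD4 WT libraries. It was higher in Treg (log2 3.60, SE 0.50 in KO, and 3.29, SE 0.56 in WT). Both genes passed the filter on low counts through the cell types in which they are high, so no p-value is given. Tnfsf15 is chiefly known from myeloid and endothelial cells, and all 10 myeloid and dendritic cell markers were counted in Treg KO (84.4 to 90.3 CPM summed), Treg WT (72.9 to 92.4 CPM), CD4 KO (35.5 to 61.6 CPM) and CD4 WT (53.5 to 71.5 CPM). Their part in the Tnfsf15 result was not tested.

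Counts of genes that process or receive these signals stand beside those of all genes tested against CD4. Of all genes 48% passed in KO (27.8% higher, 20.3% lower) and 43% in WT (24.8% higher, 18.2% lower). Of 16 signalling adaptors 4 were higher and 1 lower in Treg KO against CD4 KO, and 2 higher and 1 lower in Treg WT against CD4 WT. Cflar, the inhibitor of caspase-8 activation, rose in both (log2 0.93 in KO and 1.26 in WT), as did Sharpin of the linear ubiquitin ligase (0.68 and 0.77). Traf1, an adaptor induced by NF-kappaB, fell in Treg KO (log2 -0.96). Of 8 shedding genes 3 were higher and 0 lower in Treg KO, and 3 higher and 1 lower in Treg WT. Adam17, the protease that releases TNF from the membrane, rose by 0.59 (KO) and 0.54 (WT) on the log2 scale, and Timp3, its inhibitor, by 2.03 and 2.14.

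Of 12 genes that govern the life of ligand messages, 3 were higher and 2 lower in Treg KO against CD4 KO, and 4 higher and 1 lower in Treg WT against CD4 WT. Of all genes 27.8% were higher and 20.3% lower in KO, and 24.8% higher and 18.2% lower in WT. The median log2 fold change of the 12 was 0.12 in KO and 0.14 in WT, with 0.10 and 0.05 for all genes. Zfp36l1, a relative of tristetraprolin, rose in both (log2 0.90 in KO and 0.80 in WT), as did Rc3h2 (0.56 and 0.35). Zc3h12a was among those higher in WT (0.98). Zfp36 itself rose by 0.48 in KO (edgeR adjusted p = 0.0203) and by 0.46 in WT (edgeR adjusted p = 0.0255), the WT value chosen after it was seen. Zfp36 was not called in Treg KO against CD8 KO. Elavl1, whose product HuR stabilises such messages, fell in both (-0.84 in KO and -0.94 in WT). Of 15 tested NF-kappaB target genes 4 were higher and 4 lower in Treg KO, and 8 higher and 3 lower in Treg WT against CD4. The shares of all genes are those just given for the same comparisons. Ccl4, a chemokine gene, had the smallest p of them and rose in both (1.96 in KO and 2.15 in WT). Nfkbie and Nfkbiz, genes of the IkappaB family, rose in both (1.16 and 1.15 in KO, 1.01 and 1.08 in WT). Bcl2l1, the survival gene of BCL-XL, fell (-1.97 in KO and -1.56 in WT). In CD8 against CD4, the chemokine genes Ccl3 and Ccl4 were higher in KO (log2 3.25 and 1.83) and in WT (3.04 and 1.42). No gene of these lists passed between KO and WT in any cell type by edgeR. The lists were not refitted under other scalings.

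Patterns most like each ligand were sought among all tested genes by Pearson's r of log2 CPM over the 18 libraries, as a description without a test, since the libraries fall into groups by cell type. Cd40lg was nearest to Cd4 (r = 0.983 over 18 libraries), followed by Ly6c1 and Runx1. Its r with Cd4 was 0.993 over the 12 CD8 and CD4 libraries and 0.532 over the 6 Treg libraries. Lta was nearest to Cct7, Mcm3 and Psmd8 (r = 0.988 to 0.989, with 0.719 to 0.850 over the 12 libraries and 0.132 to 0.444 over the 6 Treg libraries). Ltb was nearest to Mir142hg, the host gene of a blood cell microRNA (r = 0.946, with 0.891 over the 12 libraries and -0.269 over the 6 Treg libraries), then to Shisa5 and Zcchc7. Tnf was nearest to Syce2 (r = 0.949), Tnfsf8 to Knstrn (r = 0.947), Fasl to Vdac1 (r = 0.964) and Tnfsf11 to Itm2a (r = 0.931). Tnfsf10 had the weakest nearest pattern, Osbpl3 (r = 0.865, with 0.828 over the 12 libraries), with Nkg7, a cytotoxic granule gene, next.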

How the data were processed

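The authors deposited whole-number counts per Ensembl gene for the 18 libraries. The tools were STAR 2.5.3a, featureCounts (Subread 2.0.0), UMI-tools 1.0.0, cutadapt 2.10 and FastQC, with the build GRCm38 (mm10), per the submitters' processing notes. Not given in the sources used here: the strand setting, how multi-mapping reads were treated and the annotation release. Gene names came from GENCODE M21, which named 55141 of 55487 IDs and left 346 without a symbol. Of 30423 genes with any count, 12693 passed edgeR's filter (minimum count 10), and 3 counts corresponded to 1.33 to 3.56 CPM in a library.

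Counts were fitted with edgeR 4.0.16 in R 4.3.3 by the robust quasi-likelihood test, with TMM scaling, 1 mean per group over all 18 libraries and 12 residual degrees of freedom. P-values were adjusted over all tested genes by the Benjamini-Hochberg method, with a threshold of 0.05. The script was tested on simulated data. DESeq2 1.42.0 and limma 3.58.1 (voom) served as alternatives, beside other scalings, no filter, a replicate block, a hemoglobin covariate, summed Treg pairs, fits of the compared libraries alone and leaving out each library. An exact permutation test of 3 against 3 libraries cannot go below p = 0.1. Scaling to T cell receptor and CD3 counts and the ratios of summed counts were chosen after seeing the data.

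The ligands and gene lists were chosen with earlier results of these data known. All 9 ligands are named. Of each other list, up to 4 passing genes of smallest p per comparison, and for each tested ligand the 3 genes of highest Pearson r, could be named.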

Additional observations from a re-analysis of the deposited data

How the results depend on the processing

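Tnfsf11 calls between Treg and CD8 changed with the setting. In WT it was not called in the main fit but was in 2 of 9 other settings (no filter and limma-voom). It was also called there without CD8 WT replicate 3 or Treg WT replicate 3. The KO call was lost without Treg KO replicate 1 or replicate 3. Tnfsf11 had at most 2 counts in a Treg library, so no p-value is given for these calls. Across the alternatives no ligand called in the main test reversed its direction. The count of ligands called between CD8 KO and CD8 WT was 1, in place of 0, with no filter on low counts and with the hemoglobin covariate (Ltb, lower). The count for Treg WT against CD8 WT was 4, in place of 7, with scaling to T cell counts. For the knockout effect in CD4 minus CD8 it was 1, in place of 0, with no filter (Tnfsf8), and 0 to 1 when each library was left out. The cause was not tested. The replicate block gave 7 ligands, in place of 6, in Treg WT against CD4 WT (Cd40lg) and changed no other count of ligands. Same-numbered libraries deviated together with correlations of -0.34 to 0.307, so the numbers were not taken as pairs.

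Over all genes, 21 passed in CD8 KO against CD8 WT, and 447 with no filter, 72 with DESeq2, 35 with RLE scaling, 12 with the replicate block, 4 with the hemoglobin covariate, 1 with the Treg pairs summed, 0 with the compared libraries alone, 0 with scaling to T cell counts and 0 to 646 with 1 library left out. In CD4 KO against CD4 WT it was 0, and 22 with no filter, 1 with DESeq2, 2 with the hemoglobin covariate, 2 with the compared libraries alone and 0 to 2 with 1 library left out. In CD8 KO against CD4 KO it was 455, and 693 with no filter, 238 with scaling to T cell counts and 288 to 458 with 1 library left out (288 without CD4 KO replicate 1, 295 without CD4 KO replicate 3). The share of higher calls there was 76.1% with scaling to T cell counts and 53.4% with the hemoglobin covariate, in place of 38.2%. In CD8 WT against CD4 WT it was 682, and 415 with DESeq2, 431 with the hemoglobin covariate, 226 with the compared libraries alone, 161 with scaling to T cell counts and 306 to 1266 with 1 library left out, and the share of higher calls was 51.7% with the hemoglobin covariate and 50.3% with scaling to T cell counts, in place of 65.0%. For CD4 minus CD8 it was 0, and 602 with no filter, 130 with DESeq2 and 0 to 860 with 1 library left out. In Treg KO against CD8 KO it was 5604, and 3100 with scaling to T cell counts. With library totals only, the share of higher calls was 46.4% in Treg WT against CD4 WT and 47.6% in Treg WT against CD8 WT, in place of 57.7% and 57.4%.

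Treg libraries held the fewest counts, and ligands with at most 10 counts per library there (Lta, Fasl, Tnfsf10, Tnfsf11 and Tnfsf4) have wide relative errors.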
